A study of Mus musculus with 11 samples.

Results

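The genes described here encode cytosolic ribosomal proteins and the initiation and elongation factors of translation, measured in mouse mammary lesions. They were chosen by gene symbol alone, and a probe set (the group of short probes that reads one transcript on an Affymetrix array) was a member when the array annotation gave it a single gene symbol of either class. The rule found 78 genes, read by 109 of the 12422 probe sets tested. Of these, 47 probe sets read 33 ribosomal protein genes and 62 read 45 factor genes. The 78 genes also include Eef1akmt1, an enzyme that methylates eEF1A, and Eef2k, the kinase of eEF2, because their symbols fit the rule. Another 39 probe sets were annotated to a ribosomal protein or factor together with other genes, mostly pseudogenes, and were not members.

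PN1a and PN1b are premalignant outgrowth lines of Trp53-/- (p53-null) Balb/c mammary epithelium, started from the 2 opposite glands of a single mouse. Tissue of each line was kept by serial transplantation into cleared fat pads of 3 week old wild-type female Balb/c mice, and whole glands were taken 8 weeks later. The study compared 5 PN1a samples, the line with high tumor-forming potential, with 6 PN1b samples, the line with low potential. Both groups thus share the p53-null epithelium and a host that supplies wild-type stroma, fat, vessels and leukocytes, and each line has a single origin. The labels do not say whether each sample is a separate mouse, and the titles of PN1b 1 to PN1b 4 read as number ranges, which may or may not stand for pooled animals, so each p-value reflects only how far these samples differed from each other, which may be partly technical. Because RNA came from whole glands, fewer cells of a type and less RNA per cell cannot be told apart.

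Ribosomes are built from a small subunit, which reads the mRNA, and a large subunit, which joins amino acids, and their proteins are made in matched amounts in growing cells. Initiation factors bring the initiator tRNA, the mRNA cap and the small subunit together, while elongation factors deliver aminoacyl-tRNAs and move the ribosome along. In mammary tissue the mTOR pathway sets much of this activity through the 4E-BPs, small proteins that hold the cap-binding factor eIF4E until they are phosphorylated. mRNAs of ribosomal proteins and elongation factors typically begin with a short pyrimidine-rich stretch through which mTOR governs their translation.

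RefSeq start windows (GRCm38.p6), 15 bases before and 15 bases from the annotated start, were available for 63 of the 78 genes. They are shown for genes that carry the results below, next to Rpl7a and Rps27, which have clear pyrimidine runs and whose levels were close in both lines. Capitals mark CTTTC, a pyrimidine motif searched on the sense strand.
Eif4ebp2, chr10:61452655-61452684, minus strand: ggtatcgcagcgggacgaccgggcgagagc
Eif3c, chr7:126566352-126566381, minus strand: ctcacctgctcagagggactcggcagctta
Rpl39, chrX:37085208-37085237, minus strand: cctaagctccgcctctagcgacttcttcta
Rpl38, chr11:114668565-114668594, plus strand: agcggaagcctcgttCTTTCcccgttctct
Rps10, chr17:27635230-27635259, minus strand: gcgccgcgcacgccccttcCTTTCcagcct
Rps18, chr17:33955651-33955680, minus strand: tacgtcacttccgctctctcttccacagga
Rpl7a, chr2:26910792-26910821, plus strand: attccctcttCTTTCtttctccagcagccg
Rps27, chr3:90213634-90213663, minus strand: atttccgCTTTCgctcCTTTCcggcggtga

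CTTTC occurred on the sense strand in 7 of 35 annotated starts of ribosomal protein genes (20%), in 3 of 51 starts of factor genes (5.88%) and in 4.05% of the 32851 starts of all genes. On the other strand it occurred in 0 starts of ribosomal protein genes, in 2 starts of factor genes (3.92%) and in 3.6% of all starts. The windows of Eif4ebp2, Eif3c, Rpl39 and Rps18 hold no match, which says only that these letters are not within those 30 bases.

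Technical differences between samples touch the results and are given first. The sample titles carry 3 endings whose meaning the labels do not state: all 5 PN1a samples share one ending with PN1b 5 and PN1b 6, and PN1b 1 to PN1b 4 carry the others. PN1a 1 and PN1a 2, the PN1a samples titled by number, had a mean 18S RNA control intensity of 160 and 222, against 5.7 to 19.9 in the other 9 samples. Summed intensity of 19 luminal epithelial markers such as Krt8 was also lowest in these samples, at 488 and 1198, against 1947 to 2929 in the rest. Of the other marker lists, basal markers (912 and 1019, against 1343 to 2916) and endothelial markers (269 and 123, against 307 to 541) were also lowest there, and proliferation genes were highest (852 and 1023, against 457 to 658). The fibroblast and matrix list was low in PN1a 2 alone, at 1218, against 4323 in PN1a 1 and 2903 or more in every other sample. PN1a 5 and PN1b 6 had high ratios of 3′ to 5′ control probe sets, 4.17 and 5.21 for Gapdh, against 0.829 to 2.17 in the other 9, a measure that rises when RNA is shorter. The median intensity of all probe sets was 8.57 to 9.51 in every sample.

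Between PN1a and PN1b lesions no ribosomal protein probe set passed the test in either direction. Among factors 1 of 62 probe sets, for Eif4ebp2, was lower in PN1a. A call required an adjusted p under 0.05 (limma on log2 intensity, two-sided, Benjamini-Hochberg over all 12422 probe sets) and a change of at least 1.5-fold. Among all probe sets, 0.869% were called higher and 1.62% lower in PN1a. At an unadjusted p under 0.05 there were 8 ribosomal protein and 15 factor probe sets, beside 2351 of all probe sets (18.9%). By the methods' t-test 0 ribosomal protein and 1 factor probe sets passed after Benjamini-Hochberg adjustment, and 2 (Rpl38 and Rpl39) and 3 (Eif4ebp2, Eif1b and Eif3d) passed without adjustment at p under 0.01 with a change of at least 1.5-fold, beside 5.74% of all probe sets. The median log2 fold change was 0.04 for ribosomal proteins and 0.05 for factors, beside -0.01 for all probe sets. Within the samples of the shared title ending, 5 PN1a and 2 PN1b, these medians were -0.04, -0.11 and -0.01, so the sign of both classes turned there.

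**Figure D1:**
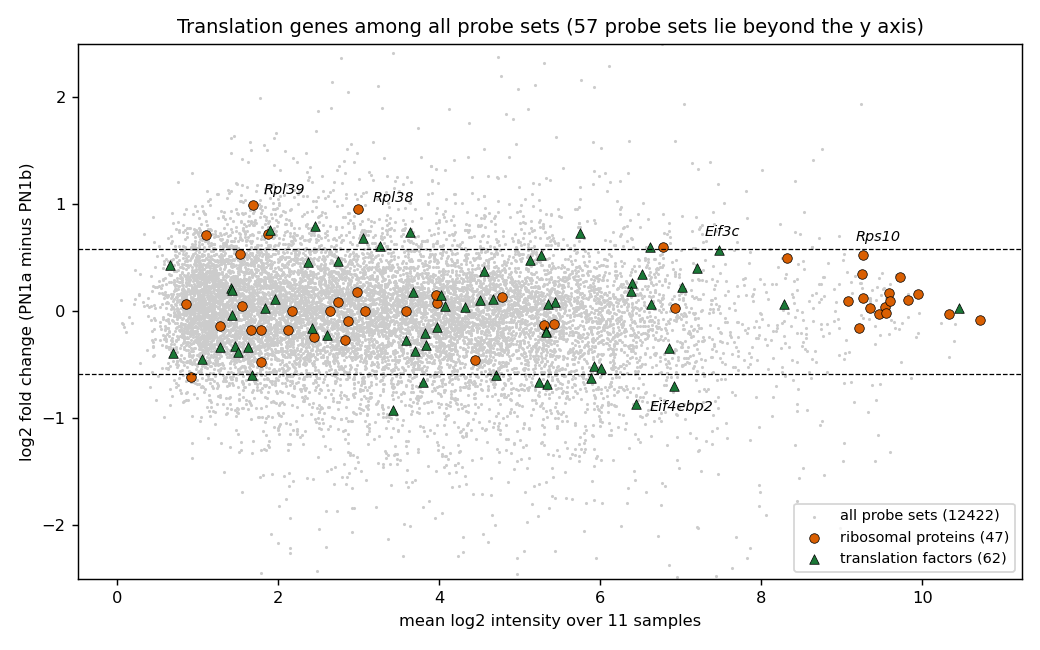
Log2 fold change (PN1a minus PN1b) against mean log2 intensity over 11 samples, with ribosomal proteins as circles, translation factors as triangles and all 12422 probe sets in grey. Dashed lines mark 1.5-fold, 57 grey probe sets lie beyond the axis, and of the named genes Eif4ebp2 is the 1 that was called.

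The bright ribosomal protein genes differed little between the lines and between replicates. Of 47 ribosomal protein probe sets, 16 had a mean log2 intensity of at least 9, and their median absolute log2 difference was 0.10, beside 0.29 for the 50 probe sets of other genes that bright. For 13 of the 16 (81.2%) the 95% interval of the difference lay wholly within 1.5-fold in both directions, beside 17 of the 50 other bright probe sets (34%) and 16.1% of all probe sets. Their median pooled SD between replicates was 0.20 log2 units, beside 0.37 for the other bright probe sets. Of the 31 dimmer ribosomal protein probe sets 10 (32.3%) had such an interval, and their log2 differences ran between -0.62 and 0.996. Over all 47 ribosomal protein probe sets 23 intervals (48.9%) lay within 1.5-fold, and over the 62 factors 7 (11.3%).

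Rplp0, which forms the base of the large subunit stalk, shows this evenness. Its intensity was 1218, 1269, 1278, 1287 and 1314 in PN1a and 1176 to 1380 in PN1b (median 1305). The groups overlapped throughout, with a log2 difference of -0.03 (95% interval -0.34 to 0.28, adjusted p = 0.942, limma). Rpl41, a very short large subunit protein, read 1510 to 1771 in PN1a and 1596 to 1938 in PN1b. Rpl19, another large subunit protein, read 657 to 820 in PN1a and 676 to 787 in PN1b. Eef1a1, the elongation factor that delivers aminoacyl-tRNA, read 1218 to 1585 in PN1a and 1269 to 1663 in PN1b, with a log2 difference of 0.03 (interval -0.30 to 0.37). For these genes the interval over all samples lay within 1.5-fold in both directions. Within the shared ending, with 2 PN1b samples, the intervals were wider, and that of Rpl41 ran between -0.73 and 0.31 and that of Eef1a1 between -0.65 and 0.44. There 3 of the 16 bright (18.8%) and 4 of all 47 ribosomal protein probe sets (8.51%) had an interval within 1.5-fold, beside 0.861% of all probe sets.

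**Figure D2:**
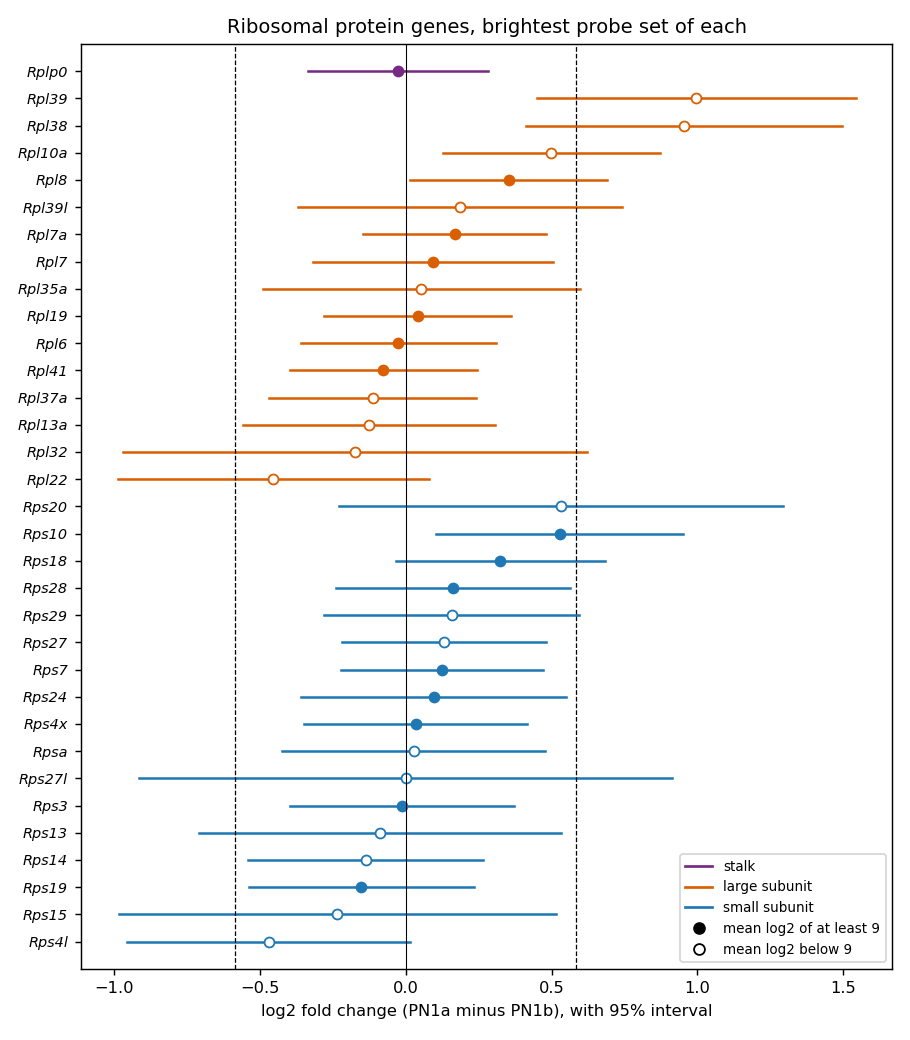
Log2 fold change (PN1a minus PN1b) of the brightest probe set of each of 33 ribosomal protein genes, with its 95% interval, for the stalk protein, the large subunit and the small subunit. Filled points have a mean log2 intensity of at least 9, dashed lines mark 1.5-fold, and most filled points have intervals between the lines.

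Among the 20 large subunit probe sets (15 genes, median 0.02), Rpl39 and Rpl38 came nearest to a call. Rpl39, a small basic protein near the exit tunnel, read 4.47, 4.44, 4.56, 5.31 and 4.66 in PN1a, against 1.68, 1.96, 3.58, 4.11, 2.04 and 1.68 in PN1b. Every PN1a sample was higher than every PN1b sample, and PN1b 3 and PN1b 4 lay closest to the PN1a values. The log2 difference was 0.996 ± 0.25 (SE), with an adjusted p of 0.0561 by limma. Without PN1b 4 it was 1.16 with an adjusted p of 0.0315, and with each sample centred on its median 1.06 with an adjusted p of 0.0459. The probe set is dim, below the median log2 intensity of all probe sets (3.14).

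Rpl38, a large subunit protein known in the mouse for selective translation of Hox mRNAs, was read by 2 probe sets that did not agree. Both were dim, with mean log2 intensities of 2.99 and 1.66, below the median of all probe sets (3.14). The brighter read 10.9, 14.5, 12.4, 9.45 and 10.3 in PN1a, against 3.25, 8.23, 4.59, 5.94, 6.87 and 8.11 in PN1b. No PN1b sample reached the lowest PN1a sample, and the log2 difference was 0.95 ± 0.25 (SE, adjusted p = 0.0626, limma). In the dimmer the groups overlapped, at 2.22 to 5.24 in PN1a and 2.30 to 6.19 in PN1b, a log2 difference of -0.17. Which of them follows the transcript was not tested.

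Rpl8, part of the large subunit near the site of peptide bond formation, and Rpl10a, a large subunit protein also known for specialised ribosomes, also had higher values in PN1a without a call. Rpl8 read 685, 666, 704, 729 and 699 in PN1a, against 605, 498, 576, 502, 648 and 468 in PN1b. The groups did not overlap, although PN1b 5 came close, and the log2 difference was 0.35 (interval 0.02 to 0.69, adjusted p = 0.242). Rpl8, Rpl38 and Rpl39 make 3 of 47 ribosomal protein probe sets (6.38%) with every PN1a sample above every PN1b sample, where 1.58% of all probe sets had that order, and 0 had the reverse, where 2.38% of all did. The probe sets of Rpl38 and Rpl39 in this count were dim. Rpl10a read 377, 367, 428, 437 and 324 in PN1a, against 324, 252, 241, 220, 300.2 and 311 in PN1b. PN1a 5 met the highest PN1b sample, and the log2 difference was 0.50 (adjusted p = 0.136).

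The 26 small subunit probe sets (17 genes) had a median log2 difference of 0.08. Rps10, which sits at the mRNA entry region, read 724, 657, 826, 781 and 781 in PN1a, against 564, 388, 428, 452, 685 and 695 in PN1b. The 4 low samples were PN1b 1 to PN1b 4, while PN1b 5 and PN1b 6 lay within the PN1a range. The log2 difference was 0.53 (adjusted p = 0.165) over all samples and 0.12 (adjusted p = 0.905) within the shared title ending. Rps18, a protein of the subunit head, gave the same order, with 898 to 1060 in the 7 samples of the shared ending and 635 to 798 in PN1b 1 to PN1b 4. Its log2 difference was 0.32 over all samples and 0.07 within that ending.

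Rps4x, the X-linked form of a small subunit protein, had 5 probe sets with log2 differences of 0.00 to 0.72. The brightest read 526, 605, 724, 765 and 729 in PN1a and 526 to 832 in PN1b, a log2 difference of 0.03. The largest differences came from dim probe sets, 1 of which read 2.09 to 3.51 in PN1a and 1.21 to 2.39 in PN1b, with a log2 difference of 0.72 (adjusted p = 0.121). Rps4l, a paralogue of Rps4x, gave -0.47 (adjusted p = 0.28) from values of 2.16 to 3.97 in PN1a and 3.18 to 5.46 in PN1b. PN1a 1 and PN1a 2 were the lowest samples there, and without them the value was -0.195. A second Rps4l probe set of similar intensity gave -0.17. The ranges of both genes overlapped.

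Members sharing a title-ending pattern are given with the background of all probe sets. In 3 of 47 ribosomal protein probe sets, for Rpl10a (the dimmer of its probe sets), Rps10 and Rps18, all 7 samples of the shared ending were higher than PN1b 1 to PN1b 4, as in 2.14% of all probe sets. For factors this held for 5 of 62, for Eif1ax, Eif2s3y, Eif3c, Eif3e and Eif4a1. The reverse order held for 1 ribosomal protein, Rpl22, and for 2 factors, Eif4b and Eif4g3, as in 4.93% of all probe sets. Since PN1b 1 to PN1b 4 have no PN1a sample of their ending, title ending and line cannot be told apart for them. The bright ribosomal proteins as a set were not divided by title ending alone. Their median log2 level relative to the mean of all samples was -0.09, -0.11, 0.14, 0.15 and 0.12 in PN1a, against -0.07, -0.17, -0.10, -0.08, 0.11 and 0.18 in PN1b. The low samples were PN1a 1, PN1a 2 and PN1b 1 to PN1b 4, so PN1a 1 and PN1a 2 lay with the samples of the other endings.

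**Figure D3:**
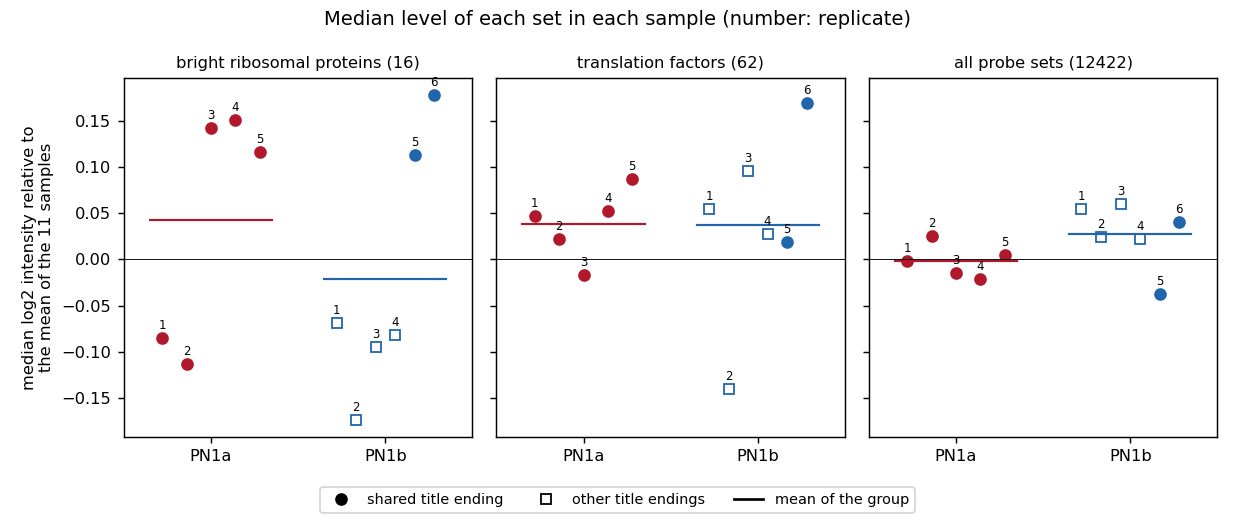
Median log2 intensity of 16 bright ribosomal protein probe sets, 62 factor probe sets and all probe sets in each sample, relative to the mean of the 11 samples, PN1a left of PN1b. Filled circles share a title ending, open squares carry the other endings and horizontal lines are group means. For bright ribosomal proteins PN1a 3 to 5 and PN1b 5 and 6 lie above 0 and the other samples below.

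The 1 factor called was Eif4ebp2, a 4E-BP that holds eIF4E and so limits cap-dependent initiation. The brightest of its 3 probe sets read 54.2, 67.6, 67.6, 63.1 and 61.4 in PN1a, against 159.8, 111, 116, 120, 76.6 and 115 in PN1b. No PN1a sample reached the lowest PN1b sample, PN1b 5. It fell by 0.86 ± 0.19 on the log2 scale (SE, 95% interval -1.28 to -0.45), with an adjusted p of 0.0339 by limma, and was 1 of 62 factor probe sets (1.61%) with every PN1a sample below every PN1b sample, beside 2.38% of all.

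The call depended on which samples were included. It held without PN1b 5 (adjusted p = 0.0109) or PN1b 6 (0.0494) and ended when any of the other 9 samples was left out, with log2 differences between -0.98 and -0.76 over all 11 omissions and adjusted p of 0.051 to 0.0824 over those 9. Within the shared title ending the log2 difference was -0.58 (adjusted p = 0.676), and there 0.0483% of all probe sets were called higher and 0.0966% lower. The other probe sets of the gene gave 0.11 (adjusted p = 0.766) and, for the dimmest, 0.44 (adjusted p = 0.409), with overlapping groups. In the same samples 4 of 20 macrophage and monocyte markers were called higher in PN1a, beside 0.869% of all probe sets. The summed intensity of the list was 1123 to 1827 in PN1a, against 408 to 1063 in PN1b. Within the shared ending the 4 (Tyrobp, Ctss, Cd68 and C1qb) gave 0.85, 0.77, 0.97 and 1.98 on the log2 scale. There they were not called (adjusted p of 0.634 to 0.676, limma). Trp63, which marks basal epithelium, was called lower, as were 1.62% of all probe sets. Of the 19 luminal markers 0 were called, of the 16 basal markers 1, of the 16 B cell and plasma cell markers 1 (Pou2af1, a B cell coactivator, at -1.86 on the log2 scale) and of the 16 adipocyte markers 1 (Lpl, lipoprotein lipase, at -1.81). Of the T and NK cell, fibroblast, endothelial, skeletal muscle and proliferation lists 0 genes were called. Within the shared ending Pou2af1 was called (-1.75, adjusted p = 0.0485, limma), and Trp63 and Lpl were not. The part of cell composition in the Eif4ebp2 result was not tested.

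**Figure D4:**
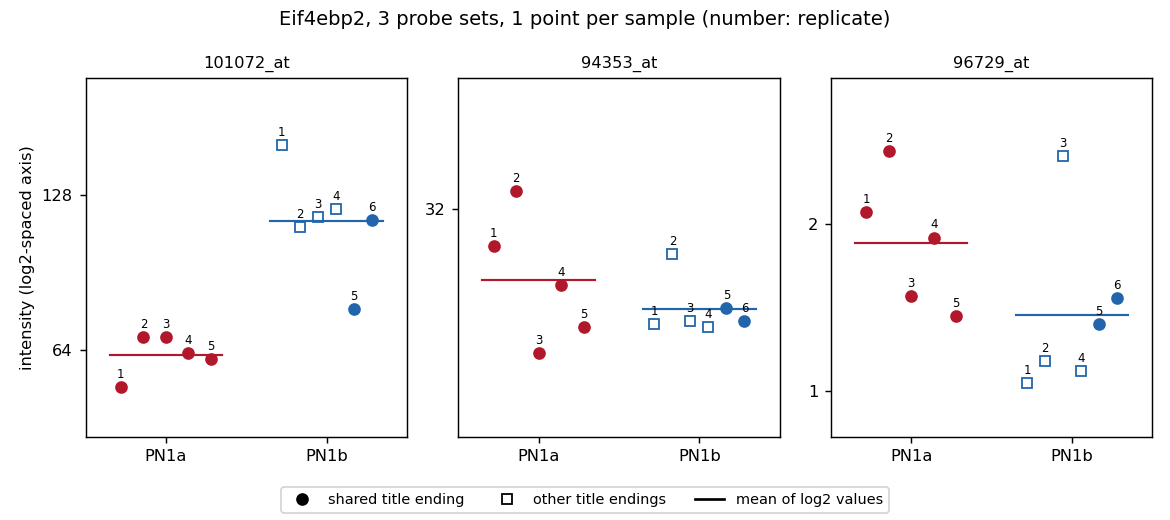
Intensity of the 3 Eif4ebp2 probe sets in each sample on log2-spaced axes, PN1a left of PN1b, with filled circles for the shared title ending, open squares for the other endings and lines at the mean of log2 values. In the brightest, at left, all 5 PN1a samples lie below all 6 PN1b samples, while in the other probe sets the groups overlap.

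No other probe set for eIF4E or for a protein that acts on it was called. Eif4ebp1, the better-known 4E-BP, read 6.02 to 12.4 in PN1a and 3.71 to 10.4 in PN1b, with a log2 difference of 0.47 (adjusted p = 0.378). Eif4enif1, which carries eIF4E into the nucleus, gave 0.22 (adjusted p = 0.685). Its probe set was dim, at 2.48 to 3.48 in PN1a and 1.44 to 3.84 in PN1b. The cap-binding factor itself, Eif4e, had 2 dim probe sets with log2 differences of 0.76 (adjusted p = 0.348) and -0.04. Eif4e2, a related cap-binding protein associated with repression, had 2 probe sets. The brighter read 65.3, 48.8, 41.6, 46.9 and 35.8 in PN1a and 27.5 to 36.8 in PN1b. Only PN1a 5 fell within the PN1b range there, and PN1a 1 and PN1a 2 were the highest of all 11 samples. Its log2 difference was 0.52 (adjusted p = 0.147), or 0.34 without PN1a 1 and PN1a 2. The dimmer read 15.3 to 25.6 in PN1a and 16.8 to 22.9 in PN1b. These groups overlapped, with a log2 difference of 0.045 (interval -0.34 to 0.43).

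Of all 13 eIF4 probe sets, 5 had a log2 difference above 0 and 0 were called (median -0.19). Eif4g3, a scaffold that joins eIF4E to the ribosome, read 35.02, 19.97, 34.5, 35.8 and 34.8 in PN1a, against 58.5, 57.3, 61.0, 61.8, 28.1 and 44.9 in PN1b. PN1b 1 to PN1b 4 stood above all other samples, while PN1b 5 lay below 4 of the PN1a samples. The log2 difference was -0.68 (adjusted p = 0.152), reached -0.85 (adjusted p = 0.0426) without PN1b 5 and was -0.18 within the shared ending. Eif4a2, a helicase that unwinds the 5′ end of mRNAs, read 57.7, 65.3, 124, 114 and 129 in PN1a and 114 to 189 in PN1b. Its low values came from PN1a 1 and PN1a 2, and the log2 difference of -0.70 (adjusted p = 0.151) became -0.30 without them. Eif4a1, the main helicase of the family, ran the other way in value, at 14.0 to 20.7 in the samples of the shared ending and 6.41 to 9.71 in PN1b 1 to PN1b 4, with log2 differences of 0.75 over all samples and -0.15 within the ending.

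eIF3, the large complex that holds the small subunit during scanning, had 13 probe sets for 10 genes with a median log2 difference of 0.18. Eif3c, a core subunit, read 311, 181, 214, 204 and 212 in PN1a, against 158, 129, 145, 139, 162 and 161 in PN1b. No PN1b sample reached the PN1a range, making it 1 of 62 factor probe sets (1.61%) with that order, beside 1.58% of all. The log2 difference was 0.57 ± 0.18 (SE, adjusted p = 0.102), 0.45 within the shared ending and 0.50 without PN1a 1 and PN1a 2, below 1.5-fold in each case. Eif3d, a subunit that can bind the cap, read 133, 152, 121, 120 and 96.3 in PN1a and 58.9 to 110 in PN1b, with only PN1a 5 inside the PN1b range and a log2 difference of 0.60 (adjusted p = 0.128). Eif3e had probe sets with opposite signs, 0.68 for the brighter and -0.60 for the dimmer, and Eif3l had 0.40 and -0.44. No eIF3 probe set passed the test.

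For eIF2, which carries the initiator tRNA, and eIF2B, which recharges it with GTP, 12 probe sets of 9 genes had a median log2 difference of 0.09 and 0 calls. Eif2a and Eif2d were counted with them by symbol. Eif2s2, the beta subunit, gave the most negative value of all members, -0.92 ± 0.30 (SE, adjusted p = 0.119), from 4.08, 7.95, 8.63, 11.6 and 7.62 in PN1a and 8.46 to 22.2 in PN1b. That probe set was the dimmer for the gene and its groups overlapped, while the brighter gave -0.15. Eif2s3x, the X-linked gamma subunit, read 110, 86.2, 93.7, 99.0 and 121 in PN1a, against 121 to 137 in PN1b. PN1a 5 met the lowest PN1b sample, and the log2 difference was -0.34 (adjusted p = 0.251). Eif2s3y, its Y-linked counterpart, which female hosts do not carry, read 4.99 to 10.3 in the shared ending and 2.77 to 4.96 in PN1b 1 to PN1b 4, with a log2 difference of 0.80 (adjusted p = 0.109). Its probe set is dim (mean log2 intensity 2.45), and what it read in these glands was not tested. Eif2d, which can place tRNA on the ribosome without eIF2, gave 0.48 (adjusted p = 0.226) for its brighter probe set and 0.11 for the dimmer. In the brighter, PN1a 1 and PN1a 2 were higher than all other samples, and without them it gave 0.28.

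The eIF1, eIF5 and eIF6 genes, grouped by symbol and including Eif5a, had 10 probe sets of 7 genes with a median log2 difference of -0.25. Eif1b, a close relative of the start-codon factor eIF1, read 26.7, 18.2, 19.6, 19.2 and 21.7 in PN1a, against 37.0, 25.5, 33.1, 39.4, 21.6 and 36.8 in PN1b. PN1a 1 and PN1a 5 overlapped the PN1b range, and the log2 difference was -0.59 ± 0.20 (SE, adjusted p = 0.133). Eif1ax, which with eIF1 opens the scanning ribosome, had log2 differences further apart between probe sets than any other member, 0.73 for the brighter and -0.66 for the dimmer. The brighter read 97.0 and 88.0 in PN1a 1 and PN1a 2 and 23.6 to 67.6 in the other 9 samples, and the dimmer 6.64 and 7.46 in those 2 and 10.6 to 22.6 in the rest. In both probe sets, therefore, PN1a 1 and PN1a 2 stood apart, in opposite directions.

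PN1a 1 and PN1a 2 also stood apart in other factors, in shares near those of all probe sets, given below. Eif5, the factor that makes eIF2 hydrolyse its GTP, read 33.4, 25.1, 50.2, 62.7 and 85.0 in PN1a and 47.8 to 87.4 in PN1b. Its log2 difference was -0.63 (adjusted p = 0.272) over all samples and -0.17 without PN1a 1 and PN1a 2. Eif3j1, a loosely held eIF3 subunit, read 18, 10.8, 37.3, 48.5 and 62.7 in PN1a and 27.9 to 66.7 in PN1b, with -0.66 over all samples and 0.06 without the pair. Eif3l, another eIF3 subunit, was high in the pair instead, at 249 and 191, against 111 to 157 in the other 9 samples. In all, 8 of 62 factor probe sets (12.9%) were lower in PN1a 1 and PN1a 2 than in any other sample and 6 (9.68%) higher, where all probe sets gave 10.1% and 8.84%. Of the ribosomal proteins 2 were lower and 1 higher, and Rps19, a small subunit protein, read 428 and 478 in the pair and 572 to 714 in the rest. The part of 18S RNA or of these samples' marker levels in these values was not tested. Luminal, basal and endothelial markers were lower in both, proliferation genes higher, and fibroblast markers lower in PN1a 2 alone.

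**Figure D5:**
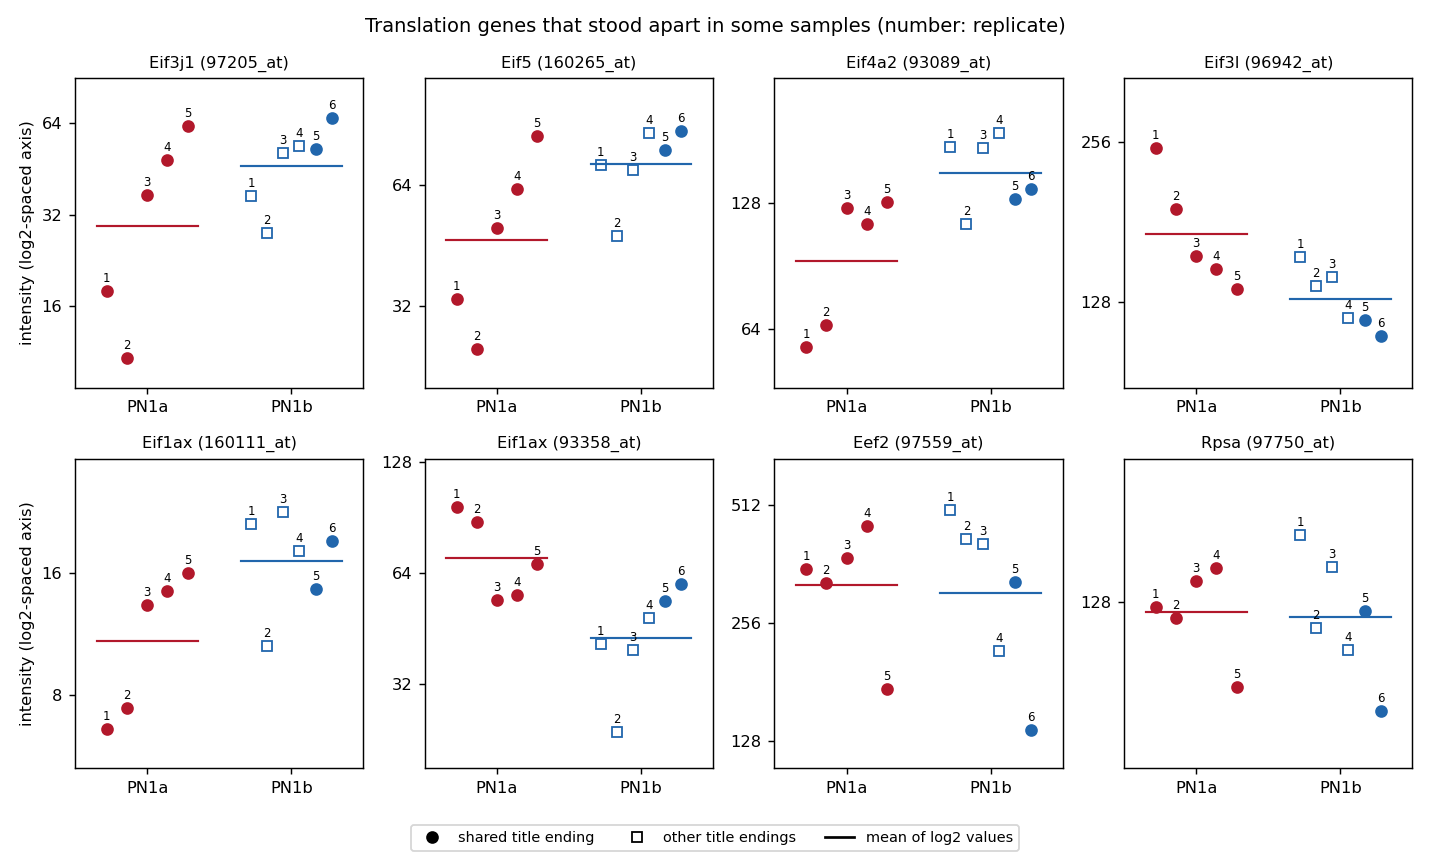
Intensity of 7 genes in each sample on log2-spaced axes, PN1a left of PN1b, with filled circles for the shared title ending, open squares for the other endings and lines at the mean of log2 values. PN1a 1 and 2 stand below or above the other samples in Eif3j1, Eif5, Eif4a2, Eif3l and both Eif1ax probe sets, and PN1a 5 and PN1b 6 are lowest in Eef2 and Rpsa.

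Elongation factors, counted together with the enzymes Eef2k and Eef1akmt1, had 9 probe sets of 8 genes, 0 calls and a median log2 difference of 0.03. Eef2, which moves the ribosome along by one codon, read 352, 324, 375, 452 and 174 in PN1a, against 498, 419, 407, 217, 326 and 136 in PN1b. Its log2 difference was 0.07 (interval -0.67 to 0.80), and its lowest samples were PN1a 5 and PN1b 6, the samples with high 3′ to 5′ control ratios. Rpsa, a small subunit protein also known as the laminin receptor precursor, was likewise lowest in that pair, at 91.8 in PN1a 5 and 83.3 in PN1b 6, against 106 to 167 in the other 9. Of the factors, 4 of 62 were lower in the pair than in any other sample and 4 higher, and of the ribosomal proteins 1 lower and 3 higher, where all probe sets gave 3.65% lower and 3.09% higher. The part of RNA length in these values was not tested. Eef1g, an exchange factor subunit, gave -0.39 (adjusted p = 0.437). It read 1.24 to 1.59 in PN1a and 1.04 to 2.57 in PN1b, near the lowest value measured (1). Eef1b2, another exchange factor subunit, gave 0.61 (adjusted p = 0.481) and, for its brighter probe set, -0.26. Eef2k gave 0.46 (adjusted p = 0.544) from a dim probe set, at 3.94 to 8.57 in PN1a and 1.52 to 6.96 in PN1b. Without PN1b 2 the value of 0.61 for Eef1b2 was 0.23 and that of Eef2k 0.15.

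Probe sets of the same gene did not always give the same direction. Of 24 members with several probe sets, 13 had log2 differences of opposite sign, the median spread was 0.53, and 4 genes (Eif1ax, Eif4ebp2, Eif3e and Rpl38) spread over more than 1. The 3 probe sets of Rps28, a small subunit protein, lay between 0.08 and 0.16. In the 39 probe sets shared with other genes, 0 were called, the median log2 difference was 0.13 and the values ran between -0.30 and 0.95. Of these, a probe set of Rpl27a shared with pseudogenes had the smallest adjusted p, 0.0555, with a log2 difference of 0.72.

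In the wider translation apparatus 174 genes were measured and 1 was called, where 0.869% of all probe sets were called higher and 1.62% lower. This was Mrpl48, a protein of the mitochondrial ribosome. It read 20.2, 13.5, 17.2, 15.6 and 15.1 in PN1a, against 31.1, 20.8, 34.3, 26.2, 26.5 and 28.8 in PN1b. PN1a 1 nearly met PN1b 2 but the groups did not overlap, and it fell by 0.77 on the log2 scale (adjusted p = 0.0415, limma). Within the shared ending it fell by 0.78 and was not called (adjusted p = 0.614), and over all samples leaving out any 1 of 8 samples (all but PN1a 1, PN1b 2 and PN1b 5) ended its call, with adjusted p of 0.0616 to 0.103. Its call also ended with quantile normalization repeated (-0.70, adjusted p = 0.0535, limma) and with 16 added before log2 (-0.44, below 1.5-fold). The other 60 of 61 mitochondrial ribosomal proteins were not called (median of the list 0.11), and Mrpl3 gave -0.56 (adjusted p = 0.127). The summed intensity of this list was highest in PN1a 1 and PN1a 2, at 2037.5 and 1887, against 1301 to 1770 in the other samples. Of 21 cytosolic tRNA synthetases 0 were called (median 0.15), with Cars, which charges cysteine tRNA, at 0.93 (adjusted p = 0.0504, 0.41 within the shared ending) and Rars, for arginine, at 0.53 (0.59 within the ending). Of 24 mTOR pathway genes 0 were called (median -0.20), with Sesn1, a p53-regulated inhibitor of mTOR signaling, at -0.90 (adjusted p = 0.0561, -0.61 within the ending) and Mknk2, a kinase of eIF4E, at -0.66 (-0.30 within the ending). The summed intensity of the mTOR list was lowest in PN1a 1 and PN1a 2, at 675 and 661, against 851 to 1033 in the other samples. Of 49 ribosome biogenesis genes 0 were called (median 0.01), with Taf1d, a subunit of the RNA polymerase I selectivity factor, at -1.05 and Nhp2, a snoRNA-binding protein, at 0.42. Of 19 other translation and mRNA-binding factors 0 were called (median -0.09), with Pabpc4, a poly(A)-binding protein, at 0.68 (adjusted p = 0.0737) and Paip2, an inhibitor of poly(A)-binding protein, at -0.61.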

How the data were processed

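Total RNA of whole glands was hybridised to Affymetrix MG_U74Av2 arrays. In dChip the authors modelled each array (PM-MM model, quantile normalization, version not given in the sources used here) and deposited linear intensity values, 1 per probe set and sample, which proved to be rounded to steps of 0.01 in log2. Each is a modelled value, so the number of arrays limits the precision. Of 12488 probe sets 66 controls were left out. Log2 was taken without a pseudocount and fitted with limma 3.58.1 in R 4.3.3 (lmFit, eBayes) on 5 PN1a and 6 PN1b samples, with no covariate. Symbols came from the array annotation updated by gene identifier to RefSeq: 10833 probe sets had 1 symbol, 396 several and 1193 none. Probe sets named in the text were the called ones, the 3 genes of smallest adjusted p in each of 9 roles, genes whose probe sets differed by over 1 or included a call, and the 2 genes of smallest adjusted p in each other list. Further genes were named after their values were seen. Members and lists were chosen with earlier results of these data known. Intensity ranks probe sets (brighter or dimmer) but was not read as a difference in transcript level between genes. The fit was tested on simulated data, drawn as independent normal values without title endings or sample effects. There 37% of log2 changes of 1 and 88% of log2 changes of 2 were called, and 7.41% of calls were false. Alternatives covered title endings, normalization, filters, pseudocount, thresholds, variance model, test and omitted samples. Protein sequences were not used here.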

Additional observations from a re-analysis of the deposited data

Results flagged for a closer look

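In 66 groups of named probe sets, 5 held a sample far from the others by Dixon's ratio (the gap to the nearest sample over the group's range), where chance gives about 1 in 20. Eif4g3 was lowest in PN1a 2, at 19.97 against 34.5 in the next sample (ratio 0.94). Rpl39 was highest in PN1a 4, at 5.31 against 4.66 (ratio 0.731). Eif4ebp2 stood out in PN1b 2 for its second brightest probe set, at 28.4 against 24.6 (ratio 0.75), and in PN1b 3 for its dimmest, at 2.66 against 1.47 (ratio 0.625). Eif5 was lowest in PN1b 2, at 47.8 against 70.0 (ratio 0.632).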

How the results depend on the processing

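The called member probe set kept its direction, but calls were lost or gained. Of all members 1 was called. The count was 0 with title ending as a fixed or random block, within the shared ending, without PN1a 1 and PN1a 2, without PN1a 5 and PN1b 6 (chosen after seeing the data) and at a fold change of at least 2. It was 2 with samples centred on their median and 5 by the methods' t-test at p under 0.01, and 0 to 2 when single samples were left out. Factors alone gave 0 in the same settings and 3 by that t-test, and 0 to 2 with single samples left out. Ribosomal proteins gave 1 with centring, 2 by the t-test and 0 to 1 with single samples left out. Median log2 differences were -0.042 for ribosomal proteins and -0.108 for factors with the fixed block and within the shared ending, which give the same estimate because the other endings hold PN1b samples alone.

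Eif4ebp2 (its brightest probe set) gave -0.582 with the fixed block (adjusted p = 0.484) and within the ending, -0.817 with the random block (adjusted p = 0.0658), -0.83 without PN1a 1 and PN1a 2 and -0.853 without PN1a 5 and PN1b 6, none of them called. Leaving out single samples gave -0.976 to -0.764. Of 30 uncalled named probe sets 2 reached an adjusted p under 0.05 in an alternative (Rpl39 and Eif4g3), 4 (Rpl38, Rpl39, Eif1b and Eif3d) passed the methods' t-test without adjustment, and 5 changed sign: the brighter of Eif3e to -0.122 and Eif4enif1 to -0.009 with the fixed block and within the ending, a second Eif4ebp2 probe set to -0.0467 without PN1a 1 and PN1a 2, the dimmer of Rpl38 to 0.0683 there and to between -0.381 and 0.004 with single samples left out (0.004 without PN1b 2), and Rplp0 to 0.0931 with quantile normalization repeated and 0.0317 with centring.

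The 1 call among 174 other translation genes became 0 with either block, within the ending, without either pair of samples and at a fold change of at least 2. It became 2 with centring or without probe sets at the lowest value, 4 with trended, robust variances, 5 above the median intensity and 5 by the methods' t-test at p under 0.01, and 0 to 4 with single samples left out. The cause of these shifts was not tested. No paired analysis was possible because the sample titles of both lines share a replicate letter for only 1 pair. Dim probe sets limit the rest: 41 of 109 members lay below the median mean log2 intensity of all probe sets, and 3 had a value at the lowest value of the table.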
